A study of Mus musculus with 743 samples.

Results

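The Cip/Kip genes Cdkn1a, Cdkn1b and Cdkn1c encode the cyclin-dependent kinase inhibitors p21, p27 and p57. Their transcripts were measured in single Schwann cells (SCs), the glial cells of peripheral nerve, sorted from sciatic nerves of mice at postnatal day 1. They are the 3 genes of this family among the 25700 genes in the table, and they were taken as a family and not by a threshold on their values. All mice were P0Cre-/+: ReYFP Tg/+: βAct-DsRed Tg/+ on a C57bl/6J background, so that Cre switched on eYFP in the SC lineage, and no untreated, wild-type or other control group belongs to the series. Single eYFP-positive cells were sorted into the wells of 2 plates, and each plate received a pool of cells from its own male and female pups. The plate was therefore the replicate (n = 2), and cells of 1 plate were not.

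Of 743 wells, 621 held at least 1500 detected genes and were kept, 287 on plate 1 and 334 on plate 2. Cells with at least 50 counts per 1000000 reads (CPM) of Mki67 and Top2a together were called cycling, which gave 53 and 57 cells. Of the rest, cells with at least 50 CPM of Ncmap, which encodes a protein of non-compact myelin, were called promyelinating, which gave 59 and 60 cells. The remaining 175 and 217 cells are called other. Few cells lay near the limits, with 9 cells between 25 and 100 CPM for the cycling genes and 9 for Ncmap, and 1 cell passed both limits and was counted as cycling. Reads were summed per plate and class, and the 6 sums held 45073128 to 172878954 reads. Median reads per cell ranged from 701288 to 950150 over the 6 sums, while the median number of detected genes was 3425 and 3477 in cycling, 3690 and 3550 in promyelinating and 2775 and 2819 in other cells.

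Cip/Kip proteins bind complexes of cyclins and cyclin-dependent kinases and hold them inactive, which keeps cells from entering a new division cycle. Cdkn1a is the classic transcriptional target of p53, whereas p27 is set largely by degradation through Skp2 and its cofactor Cks1b. Cdkn1c is an imprinted gene that is used mainly from the maternal copy. In the perinatal nerve, SCs stop dividing as they settle in a 1:1 relation with large axons, the promyelinating stage that comes before myelin is wrapped.

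The class names were compared with marker genes that did not enter the class rule. In the cycling cells all 7 proliferation markers were at least 2-fold above the other 2 classes pooled, on both plates. In the promyelinating cells 9 of 10 markers of myelin onset were. Among 8 markers of immature SCs, 1 was at least 2-fold higher in the remaining cells than in the other 2 classes pooled. The remaining cells therefore carry no further name here. The SC genes Sox10, S100b and Erbb3 had reads in all 6 sums, whereas Pdgfra of fibroblasts, Ptprc and Tyrobp of immune cells, Cdh5 and Kdr of endothelium and Acta2 and Rgs5 of mural cells had 0 reads in each. Other markers on these lists did have reads, with sums of 2431 to 5346 CPM for fibroblasts, nearly all from Col3a1, and at most 56.8 CPM for the rest.

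Transcripts of all 3 genes were higher in promyelinating than in cycling cells. Upstream sequences are shown for Cdkn1a and Cdkn1b, since no promoter entry for Cdkn1c was available. Of the 3 genes, 2 had entries in the RefSeq promoter table (GRCm38.p6), with 2 start sites for Cdkn1a and 1 for Cdkn1b. Each line gives the bases before the start site, 5′ to 3′ on the plus strand, without annotated exon bases. Capitals mark matches, on either strand, to 5 motifs: the GC box GGGCGG, the CCAAT box CCAAT, the TATA motif TATAA, the forkhead motif GTAAACA and the p53 half-site consensus, a motif of 10 letters with degenerate positions.
Cdkn1a, first start site, chr17:29090729-29090975: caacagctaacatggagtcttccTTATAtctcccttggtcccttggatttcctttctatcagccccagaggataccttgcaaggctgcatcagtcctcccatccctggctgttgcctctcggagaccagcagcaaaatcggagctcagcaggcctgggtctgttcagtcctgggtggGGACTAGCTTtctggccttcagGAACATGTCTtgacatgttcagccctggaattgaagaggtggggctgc
Cdkn1a, second start site, chr17:29093519-29093768: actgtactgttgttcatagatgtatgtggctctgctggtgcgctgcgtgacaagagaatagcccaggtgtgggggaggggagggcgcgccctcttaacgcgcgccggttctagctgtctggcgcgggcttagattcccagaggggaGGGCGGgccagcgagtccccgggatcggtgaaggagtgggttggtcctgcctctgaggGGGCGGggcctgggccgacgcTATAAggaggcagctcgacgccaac
Cdkn1b, chr6:134920151-134920400: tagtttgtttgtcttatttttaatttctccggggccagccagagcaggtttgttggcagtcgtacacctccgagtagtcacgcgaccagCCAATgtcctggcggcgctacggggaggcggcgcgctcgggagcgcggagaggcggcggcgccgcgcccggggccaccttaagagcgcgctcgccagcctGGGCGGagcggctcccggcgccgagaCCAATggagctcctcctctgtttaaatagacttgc

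The first Cdkn1a window held 2 p53 half-sites, GGACTAGCTT beginning 73 bases and GAACATGTCT beginning 51 bases before the start, and a TATA motif 227 bases before it. These distances are counted from the start site at 29090979, whereas the line shown ends at 29090975, because annotated exon bases were left out. The second Cdkn1a window held 2 GC boxes and a TATA motif that began 25 bases before the start. The Cdkn1b window held 1 GC box and 2 CCAAT boxes, 161 and 35 bases before the start. None of the 9 matches overlapped another. Among the 32851 windows of 250 bases in the table, 7.13% held a p53 half-site, 32.7% a GC box, 33.8% a CCAAT box, 22.8% a TATA motif and 3.17% the forkhead motif, which was in none of the 3 windows shown. A match is a run of letters and was not tested as a binding site.

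Transcripts of all 3 Cip/Kip genes were lowest in cycling and highest in promyelinating cells on both plates. Against the cycling cells, all 3 passed the test as higher in promyelinating cells, by a ratio of plate means of 9.17 for Cdkn1a, 4.19 for Cdkn1b and 6.64 for Cdkn1c, where 2.12% of the 13292 genes tested were called higher. Against the other cells, only Cdkn1a passed as higher in promyelinating cells (background 0.497% of genes). Between cycling and other cells, only Cdkn1c passed as lower in cycling cells (background 0.113% of genes). These calls are from the fit without a plate term. With the plate as a block, Cdkn1c also passed as higher in promyelinating than in other cells (edgeR adjusted p = 0.00427). Cdkn1a then also passed as lower in cycling than in other cells (edgeR adjusted p = 0.0141). Tests were edgeR's quasi-likelihood test on the 6 sums with Benjamini-Hochberg adjustment over all 13292 genes.

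**Figure D1:**
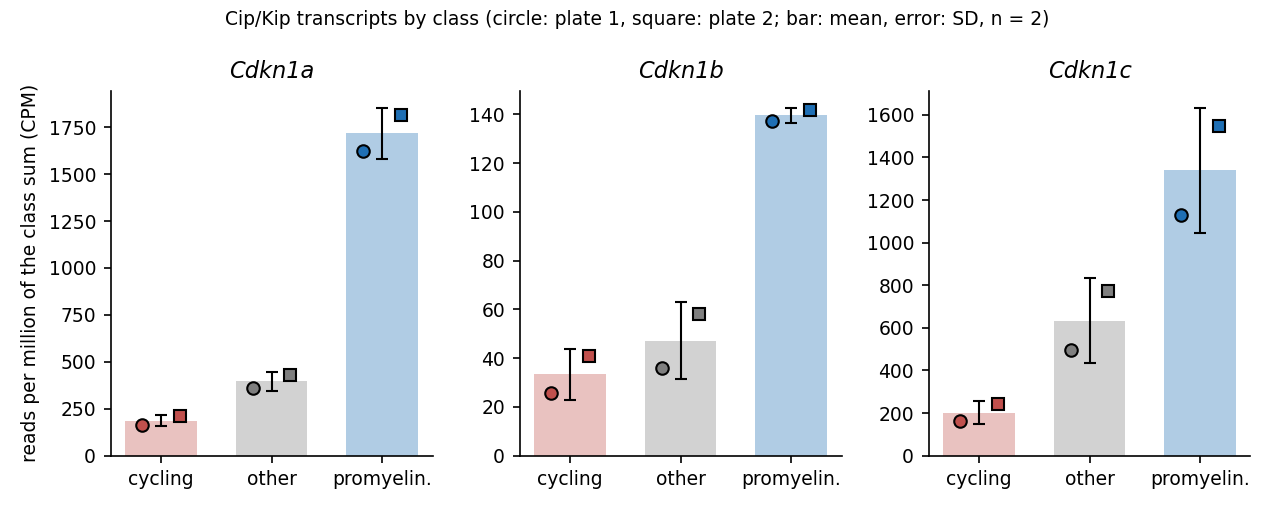
CPM of Cdkn1a, Cdkn1b and Cdkn1c in reads summed per class and plate. Symbols are the 2 plates, bars the mean and error bars the SD. The promyelinating sums lie above both other classes in each panel, from 137 CPM upward for Cdkn1b and from 1622 CPM upward for Cdkn1a.

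Cdkn1a (ENSMUSG00000023067, GRCm38 chr17:29090976-29100727, plus strand, 3553 exon bases), whose product p21 stops the cycle after DNA damage and during differentiation, had the widest span. It stood at 165 and 210 CPM in the cycling cells of plates 1 and 2, at 361 and 431 CPM in the other cells and at 1622 and 1813 CPM in the promyelinating cells. The 3 classes did not overlap between plates. The level in promyelinating cells was 1718 ± 135 CPM (SD, n = 2) against 396 ± 49.6 CPM in other cells, which is 2.20 ± 0.194 (SE) as a log2 fold change (edgeR adjusted p = 0.000986). Against cycling cells, at 187 ± 31.6 CPM, the log2 fold change was 3.15 ± 0.201 (edgeR adjusted p = 0.000102). For cycling against other cells it was -0.95 ± 0.187 and did not pass (edgeR adjusted p = 0.0703). With the plate as a block this adjusted p was 0.0141. An antisense gene, AC167363.2, overlaps Cdkn1a, and reads of the pair cannot be told apart without strand.

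Cdkn1b (ENSMUSG00000003031, GRCm38 chr6:134920401-134925513, plus strand, 4552 exon bases) encodes p27, which restrains cyclin E and cyclin A complexes in quiescent cells. In cycling cells it stood at 25.9 and 40.7 CPM, in other cells at 36.1 and 58.2 CPM, and in promyelinating cells at 137 and 142 CPM. Cycling and other cells overlapped between plates, whereas both promyelinating values lay above all others. The log2 fold change of promyelinating against cycling cells was 2.02 ± 0.412 (edgeR adjusted p = 0.0255). Against other cells it was 1.65 ± 0.407, with an edgeR adjusted p of 0.112, and the ratio was 3.81 on plate 1 and 2.43 on plate 2. The difference between cycling and other cells, -0.37 ± 0.397 on the log2 scale, did not pass (edgeR adjusted p = 0.851).

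Cdkn1c (ENSMUSG00000037664, GRCm38 chr7:143458339-143461050, minus strand, 2039 exon bases) encodes p57, which is known for its part in cell cycle exit during organ development. In cycling cells it stood at 163 and 240 CPM, in other cells at 494 and 774 CPM, and in promyelinating cells at 1132 and 1546 CPM. The classes did not overlap, but the plates differed more than for Cdkn1a. Plate 2 was higher in each class, as it was for Cdkn1a and Cdkn1b. The log2 fold change was 2.68 ± 0.289 for promyelinating against cycling cells (edgeR adjusted p = 0.00125) and -1.52 ± 0.278 for cycling against other cells (edgeR adjusted p = 0.0495). The latter call was close to the threshold, and the adjusted p rose to between 0.0526 and 0.0905 under 6 other settings of scaling, cell filter and class limits. For promyelinating against other cells the change was 1.16 ± 0.275 on the log2 scale and did not pass (edgeR adjusted p = 0.0982), and with the plate as a block the adjusted p was 0.00427. Gm44732 lies on the opposite strand within the locus, so that the counts could hold its reads as well.

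Per kilobase of exon, Cdkn1c had the highest and Cdkn1b the lowest level in all 6 sums. In promyelinating cells Cdkn1c stood at 657 ± 144 CPM per kb (SD, n = 2), Cdkn1a at 483 ± 38.0 and Cdkn1b at 30.7 ± 0.676. On plate 1 Cdkn1c and Cdkn1a were close in this class, with 555 and 457 CPM per kb, and on plate 2 they were at 758 and 510. In other cells Cdkn1c stood at 242 and 380, Cdkn1a at 102 and 121 and Cdkn1b at 7.92 and 12.8 CPM per kb on plates 1 and 2. Exon bases are those of all annotated isoforms together, which overstates the length of any single transcript.

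The share of cells with transcripts differed among the members. Cdkn1a had at least 1 read in 49.1% and 52.6% of cycling cells, 53.7% and 58.1% of other cells and 98.3% and 88.3% of promyelinating cells on plates 1 and 2. The exact (Clopper-Pearson) 95% intervals were 39.0 to 66.0% for cycling and 77.4 to 95.2% for promyelinating cells of plate 2. Cells with Cdkn1a reads were not scarce in the cycling class, but their median level, 268 and 381 CPM, was below the 1233 and 1492 CPM of promyelinating cells with reads. Thinned to 50000 reads per cell, the mean share was 48.4% in cycling, 52.9% in other and 92.3% in promyelinating cells.

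Cdkn1c was also found in most promyelinating cells, while cycling and other cells stood in opposite order on the 2 plates. At least 1 read was present in 50.9% and 70.2% of cycling cells, 59.4% and 62.2% of other cells and 96.6% and 93.3% of promyelinating cells. The plates differed by more in cycling cells (60.6 ± 13.6%, SD, n = 2) than that class differed from other cells (60.8 ± 1.97%). Among cells with reads, the median was 128 and 208 CPM in cycling, 271 and 382 CPM in other and 601 and 1317 CPM in promyelinating cells.

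Cdkn1b reads were present in most cells of each class at full depth, often few in number. At least 1 read was present in 90.6% and 87.7% of cycling cells, 88.6% and 88.9% of other cells and in all 119 promyelinating cells. At least 5 reads were present in 69.9 ± 2.83% of cycling, 66.6 ± 9.38% of other and 99.2 ± 1.20% of promyelinating cells. Thinned to 50000 reads per cell, the mean share with a Cdkn1b read was 57.3% in cycling, 52.0% in other and 94.1% in promyelinating cells. At 50 CPM or over the shares were 20.8 ± 2.79%, 22.9 ± 8.08% and 69.7 ± 12.2%. The median cell held 9.99 and 21.5 CPM in the cycling class and 121 and 112 CPM in the promyelinating class. Smart-seq2 reads carry no molecular identifiers, so that intervals cover counting error only and a few reads can come from 1 molecule.

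**Figure D2:**
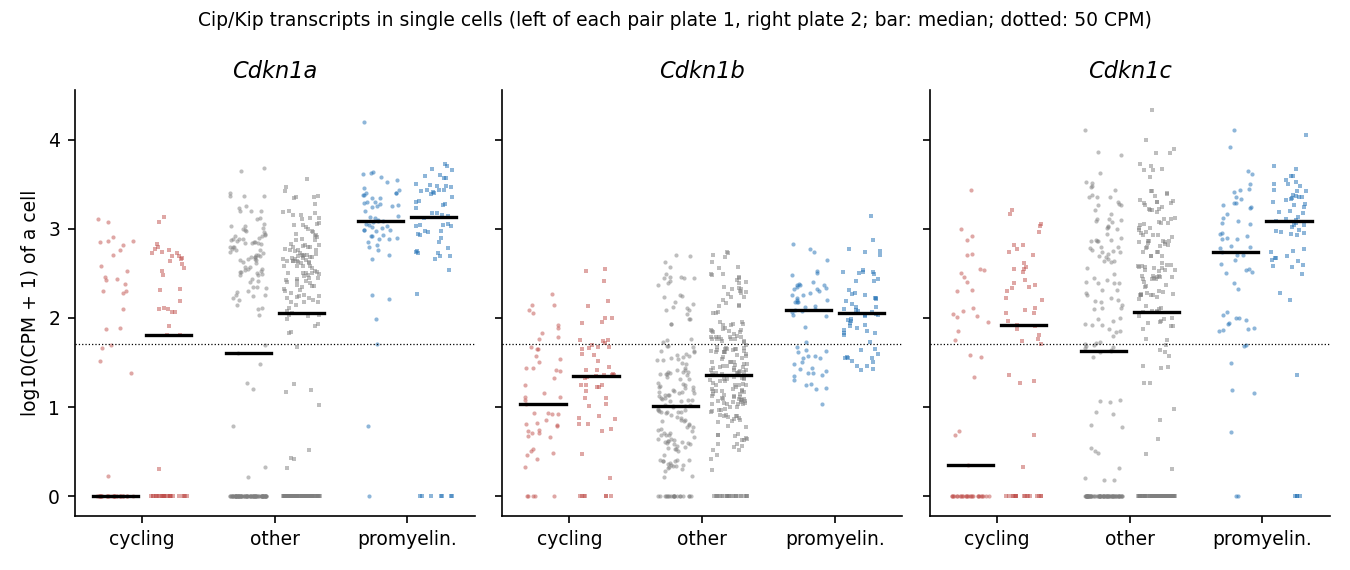
Each point is 1 of 621 cells, with log10(CPM + 1) on the vertical axis, classes on the horizontal axis and a bar at the median of each plate. Cells without reads of Cdkn1a or Cdkn1c form a row at 0 in cycling and other cells, whereas the Cdkn1b values run on without such a gap.

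Some sums leaned on few cells. The 3 cells with most reads held 53.3% and 41.1% of the Cdkn1c reads of cycling cells on plates 1 and 2 and 28.0% and 30.7% of those of other cells. In cycling cells they held 35.9% and 32.7% of the Cdkn1a reads and 35.6% and 50.1% of the Cdkn1b reads. For Cdkn1a in promyelinating cells they held 18.3% and 19.1%, and 1 cell of plate 1 reached 15880 CPM. With each cell capped at the 99th percentile of its gene, the 4 calls of promyelinating cells kept their direction and passed the test.

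Most promyelinating cells carried the members together. At 50 CPM or over, all 3 genes were present in 52.5% of promyelinating cells on plate 1 and 63.3% on plate 2, against 8.57% and 13.4% of other cells and 5.66% and 8.77% of cycling cells. Cells with no member at 50 CPM numbered 0 of 119 in the promyelinating class, 0 on each plate, which allows a share of up to 2.52%, taken as 3 of the 119 cells and covering counting error only. They made up 27.4% and 16.6% of other cells and 32.1% and 15.8% of cycling cells. A single member was the most frequent state in both of these classes, with 41.5 ± 0.560% of other and 42.8 ± 0.913% of cycling cells (SD, n = 2).

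**Figure D3:**
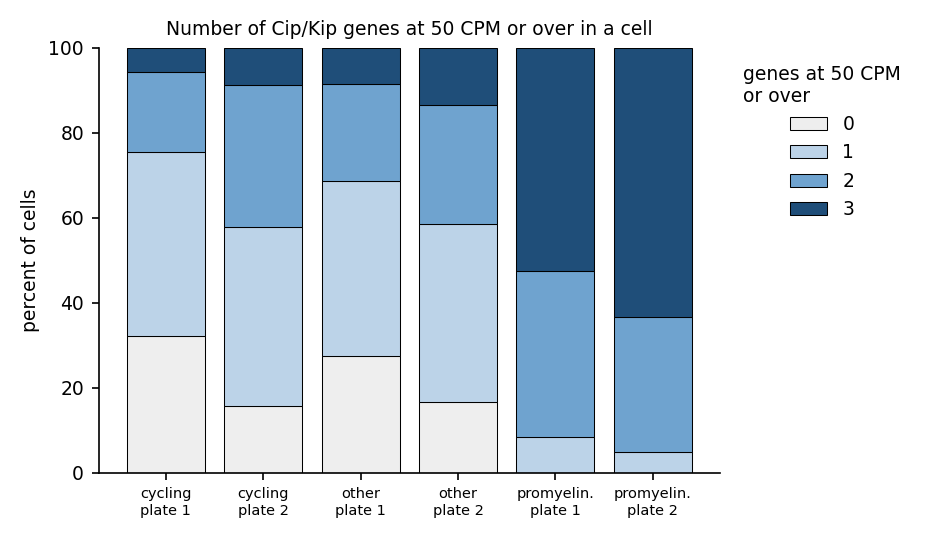
Percent of cells with 0, 1, 2 or 3 Cip/Kip genes at 50 CPM or over, by class and plate. The darkest part, all 3 genes, makes up 52.5% and 63.3% of promyelinating cells and under 15% in each other column.

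Joint presence within a class depended on the level that counted as present. In other cells, Cdkn1a and Cdkn1c were both at 50 CPM or over in 25.7% of cells on plate 1, where independent draws of the single shares give 22.7%, and in 30.0% on plate 2, where they give 30.1%. In cycling cells both were present in 9 of 53 cells, against 15.7% by the single shares, and in 29.8%, against 31.2%. At 50 CPM or over, Cdkn1b and Cdkn1c were together more often than the product of their shares in both classes on both plates, by ratios of 1.25 to 1.51. With 1 read counted as present, these ratios were 0.941 and 0.969 in cycling cells and 0.977 and 1.008 in other cells. For Cdkn1a and Cdkn1b at 50 CPM or over, the ratio was 1.36 and 1.17 in other cells and 1.05 in cycling cells of both plates together. Cdkn1c was at 50 CPM or over in 66.7% and 71.0% of other cells with Cdkn1b at that level, and in 42.1% and 49.7% of those without. In promyelinating cells the ratio at 50 CPM lay between 0.988 and 1.03 for every pair on either plate, since most cells held each gene. Pearson's r of log2(CPM + 1) within classes ranged from -0.19 to 0.26, as a description over cells that share plate and depth.

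**Figure D4:**
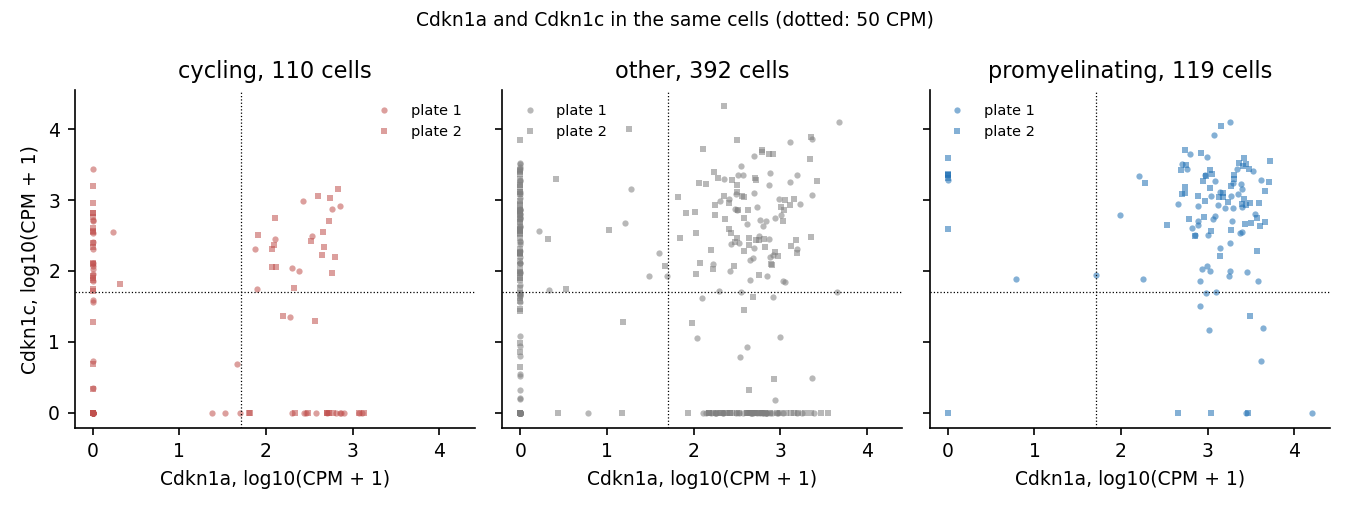
Cdkn1a against Cdkn1c in each cell, as log10(CPM + 1), for the 110 cycling, 392 other and 119 promyelinating cells. Cycling and other cells lie along both axes, with 1 gene at 0, and in the upper right, whereas 98 of 119 promyelinating cells hold both genes at 50 CPM or over.

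Cdkn1c was spread unevenly in the cells that were neither cycling nor promyelinating. Cells at 500 CPM or over made up 25.1% (44 of 175) on plate 1 and 28.1% (61 of 217) on plate 2 and held 90.4% and 91.5% of the Cdkn1c reads of this class. Their Cdkn1b level was 77.4 and 97.3 CPM, against 22.7 and 42.9 CPM in the rest of the class. For Cdkn1a the corresponding levels were 432 and 446 CPM against 338 and 425 CPM. Cells were divided by a measured level here, so these values are a description.

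Along Ncmap, the members took different courses in cells that were not cycling. Cdkn1a was at 319 and 400 CPM in cells without Ncmap reads (168 and 211 cells on plates 1 and 2) and already at 1238 and 1261 CPM in the 7 and 6 cells with Ncmap reads under 50 CPM. It was at 1377 and 760 CPM in the 9 and 19 cells from 50 to under 500 CPM, and highest at 1662 and 2259 CPM in the 50 and 41 cells at 500 CPM or over. Cdkn1c was highest in the bin from 50 to under 500 CPM, with 1848 and 2036 CPM, and lower at 500 CPM or over, with 1015 and 1339 CPM. Without Ncmap reads it was at 475 and 785 CPM, and below 50 CPM of Ncmap at 885 and 469 CPM, higher than without reads on plate 1 and lower on plate 2. Cdkn1b stood at 31.2 and 54.9 CPM without Ncmap reads and between 126 and 208 CPM in the remaining bins of both plates. The inner bins hold fewer than 20 cells on each plate, so that the peak of Cdkn1c rests on 9 and 19 cells, and the course was not tested.

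**Figure D5:**
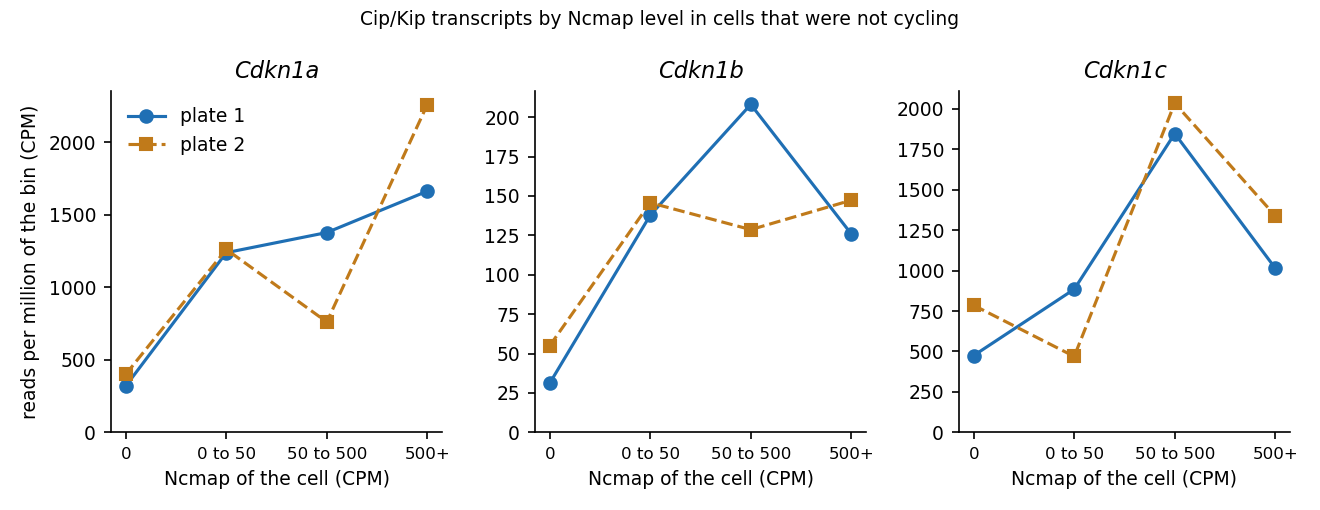
CPM of each gene in cells that were not cycling, by Ncmap level of the cell on the horizontal axis, with 1 line per plate. Cdkn1a is highest at 500 CPM or over on both plates, and Cdkn1c at 50 to under 500 CPM.

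Along the cycling genes, levels were also compared between bins, without a test. In cells with reads of Mki67 and Top2a under 50 CPM together (10 and 8 cells), Cdkn1c was at 607 and 1357 CPM and Cdkn1a at 424 and 460 CPM. In the 224 and 269 cells without reads of these genes, Cdkn1c was at 652 and 944 CPM and Cdkn1a at 681 and 757 CPM. In the 7 and 19 cells from 50 to under 500 CPM, Cdkn1c was at 48.3 and 162 CPM, its lowest bin on both plates. Cdkn1a was at 179 and 323 CPM there and Cdkn1b at 20.7 and 23.7 CPM. In the 46 and 38 cells at 500 CPM or over, Cdkn1c was at 173 and 277 CPM, Cdkn1a at 164 and 157 CPM and Cdkn1b at 26.3 and 48.7 CPM. Among cycling cells, those with Ccnb1, the mitotic cyclin, at 50 CPM or over had Cdkn1c at 208 and 248 CPM, against 75.5 and 227 CPM in those below. For Cdkn1a these levels were 180 and 196 CPM against 135 and 234 CPM, in opposite order on the 2 plates.

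The genes most like each member across cells included genes of myelin onset. Of 7893 genes with reads in at least 10% of cells, ranked by the lower of the plates' Pearson r of log2(CPM + 1), Ncmap came first for Cdkn1a, with r of 0.50 and 0.42 over the 287 and 334 cells, followed by Fa2h, Mpp6, Slc36a2 and Mag. For Cdkn1b the first was Fa2h (r = 0.50 and 0.47), followed by Mpp6, Gsdme, Ncmap and Emid1. For Cdkn1c the first was Mpp6 (r = 0.47 and 0.48), followed by Csrp2, Rasal2, Gsdme and Pou3f1, a transcription factor of promyelinating SCs. Fa2h makes hydroxylated myelin lipids and Mag is a myelin protein facing the axon. The members correlated less with each other, with r of 0.31 and 0.25 for Cdkn1a with Cdkn1b, 0.27 and 0.14 for Cdkn1a with Cdkn1c, and 0.35 and 0.29 for Cdkn1b with Cdkn1c. Ncmap also defined the class, and these values describe cells that share plate and depth.

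Among the INK4 inhibitors, which bind Cdk4 and Cdk6, Cdkn2d was highest in cycling cells. It was at 322 and 385 CPM in cycling cells, 113 and 105 CPM in other cells and 86.8 and 64.8 CPM in promyelinating cells. Cdkn2d was higher in cycling than in other cells (log2 fold change 1.83 ± 0.265, edgeR adjusted p = 0.0156, background 0.895% of genes called higher). It was also lower in promyelinating than in cycling cells (-2.27 ± 0.269, edgeR adjusted p = 0.00196, background 3.83% called lower). Cdkn2c stood at 90.96 and 122 CPM in cycling cells and at 14.3 and 40.3 CPM in promyelinating cells, and did not pass (edgeR adjusted p = 0.0956). Of the 3 INK4 genes tested, 1 passed in each of these comparisons. Between promyelinating and cycling cells 2 were lower with the plate as a block, and likewise with DESeq2 and with limma. Of all genes, the block, DESeq2 and limma called 885, 2312 and 1343 in that comparison, against 791 in the main fit. DESeq2 also called 2 higher in cycling than in other cells, where it called 796 of all genes against 134 in the main fit. None of the 3 passed between promyelinating and other cells, where 0 had an unadjusted p under 0.05 and 0 passed with DESeq2 or limma. Cdkn2a had 0 reads in all 6 sums.

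Among 18 genes of cyclins, kinases and Cdc25 phosphatases, 8 passed between promyelinating and cycling cells, 1 higher and 7 lower. Of all genes, 2.12% were called higher and 3.83% lower there. DESeq2 and limma each called 2 higher and 12 lower. Over all genes they called 2312 and 1343 there, 43.6% and 41.5% of them higher, against 791 in the main fit. Cycling cells were picked by Mki67 and Top2a, so higher cell cycle genes in them partly follow from the class rule. The same limit holds for the degradation list and the Rb, E2F and DREAM list below. The median log2 fold change was -3.24 against -0.02 over all genes. Cdk1, the mitotic kinase, was at 1185 and 1148 CPM in cycling cells and at 3.05 and 9.08 CPM in promyelinating cells. Ccnb2, a mitotic cyclin, was at 1102 and 1010 CPM in cycling cells and 0.0575 and 0.288 CPM, 3 and 15 reads, in promyelinating cells. Cdc25c, the phosphatase that activates Cdk1, had 0 reads in promyelinating cells and was at least 801-fold and 1028-fold higher in cycling cells of plates 1 and 2, taking 3 reads per sum as the floor. Ccnd2, which encodes cyclin D2, was the gene that was higher in promyelinating cells, at 859 and 526 CPM against 128 and 202 CPM in cycling cells (log2 fold change 2.03 ± 0.312, edgeR adjusted p = 0.00730). It was lower in cycling than in other cells too, the 1 of 5 calls in that comparison that was a decrease.

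Compared with other cells, 4 of the 18 were lower in promyelinating cells and 0 higher, where 1.29% of all genes were called lower. Cdk6, a partner of D-type cyclins, was at 461 and 489 CPM in promyelinating cells against 1257 and 1320 CPM in other cells (log2 fold change -1.36 ± 0.163, edgeR adjusted p = 0.00480). Ccne1, which encodes cyclin E1, was at 0.0192 and 0.0960 CPM against 8.31 and 6.92 CPM. The remaining calls were Ccnb2 and Cdc25c.

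Of 17 genes that act in degradation of Cip/Kip proteins, 4 were higher in cycling than in other cells and 6 were lower in promyelinating than in cycling cells, where 0.895% and 3.83% of all genes were called. Cks1b, the cofactor through which Skp2 binds p27, was at 1265 and 960 CPM in cycling, 108 and 45.3 CPM in other and 40.4 and 88.4 CPM in promyelinating cells. Its log2 fold change was 3.99 ± 0.523 in cycling against other cells (edgeR adjusted p = 0.00975) and -4.17 ± 0.528 in promyelinating against cycling cells (edgeR adjusted p = 0.00275). Skp2 itself was low, at 13.3 and 34.9 CPM in cycling cells and 0.614 and 9.72 CPM in promyelinating cells, and passed in no comparison. Cdc20, an activator of the anaphase-promoting complex, was at 936 and 1127 CPM in cycling and 17.8 and 15.4 CPM in promyelinating cells. Pcna, on which the ligase of Dtl meets p21, was at 572 and 576 CPM in cycling cells and 138 and 132 CPM in promyelinating cells. Cks2, Dtl and Fzr1 made up the rest of the 6.

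Rb proteins, E2F factors and their DREAM complex, which p21 and p27 keep in the repressive state by holding kinases inactive, were compared too. Of 21 genes, Foxm1 was higher in cycling than in other cells, where 0.895% of all genes were called higher. Foxm1 was also lower in promyelinating than in other cells, where 1.29% of all genes were called lower. Foxm1 and E2f7 were lower in promyelinating than in cycling cells, where 3.83% of all genes were called lower. Foxm1, an activator of mitotic genes, stood at 141 and 98.8 CPM in cycling cells and at 4.42 and 2.65 CPM in other cells and had 0 reads in promyelinating cells, which put it at least 2450-fold and 1714-fold higher in cycling cells with the floor of 3 reads. Of the 21 genes, 19 had a positive log2 fold change in cycling against other cells, with a median of 0.87 against -0.07 over all genes.

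Known regulators of the family were compared as well. Of 22 tested, 0 passed between cycling and other cells, 1 had an unadjusted p under 0.05, and 0 passed with DESeq2 or limma. Against other cells, 3 of the 22 were lower in promyelinating cells and 0 higher, where 1.29% of all genes were called lower. These were Cebpd, Klf6 and Egr1, all transcription factors with early response kinetics. Cebpd was at 19.97 and 15.6 CPM in promyelinating cells against 255 and 251 CPM (log2 fold change -3.75 ± 0.318, edgeR adjusted p = 0.000837). Klf6, described as an activator of Cdkn1a, was at 299 and 577 CPM against 1328 CPM in the other cells of both plates (-1.52 ± 0.282, edgeR adjusted p = 0.0359). Against cycling cells, 1 of the 22 was higher and 3 were lower in promyelinating cells, where 2.12% and 3.83% of all genes were called. Egr2, the master factor of myelination, was higher, at 333 and 307 CPM in promyelinating against 58.7 and 95.7 CPM in cycling cells.

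Trp53, which encodes p53, was at 98.7 and 143 CPM in cycling, 117 and 86.5 CPM in other and 86.2 and 95.4 CPM in promyelinating cells. Its log2 fold change between promyelinating and other cells was -0.09 ± 0.331 (edgeR adjusted p = 0.979). Mdm2, a target and inhibitor of p53, was at 11.9 and 19.3 CPM in cycling, 43.8 and 28.7 CPM in other and 46.5 and 48.6 CPM in promyelinating cells and passed in no comparison. Foxo3, which can activate Cdkn1b, was at 26.9 and 36.4 CPM in cycling, 53.2 and 84.6 CPM in other and 47.9 and 52.9 CPM in promyelinating cells, and Foxo1 was at 45.0 CPM or lower in every sum. Neither Foxo gene passed in any comparison.

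Of 21 other p53 targets, 17 were tested and none was called by edgeR. In promyelinating against other cells 0 of 17 passed, 2 had an unadjusted p under 0.05, both lower, and DESeq2 called 1 lower and limma 0. Their median log2 fold change was -0.70, against -0.07 over all genes and 2.20 for Cdkn1a. Against cycling cells 0 passed with edgeR, 1 had an unadjusted p under 0.05, and DESeq2 and limma each called 1, lower in promyelinating cells. Of all genes, DESeq2 and limma called 1012 and 379 between promyelinating and other cells, and 2312 and 1343 between promyelinating and cycling cells. Between cycling and other cells 0 passed with edgeR, DESeq2 or limma. There, 0 had an unadjusted p under 0.05 with edgeR, and 1, lower in cycling cells, with each of DESeq2 and limma. As examples, named after their values were seen, the kinase gene Plk2 stood at 73.4 and 47.4 CPM in promyelinating and 101 and 106 CPM in other cells, and Phlda3 at 53.6 and 118 CPM and 70.4 and 127 CPM.

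Of 20 other antiproliferative genes, 1 was higher and 1 lower in promyelinating than in cycling cells, which is near the 2.12% and 3.83% of all genes. Mxd4, an antagonist of Myc, followed the order of Cdkn1a in part, at 22.5 and 43.5 CPM in cycling, 180 and 161 CPM in other and 122 and 172 CPM in promyelinating cells. It was lower in cycling than in other cells (log2 fold change -2.25 ± 0.389, edgeR adjusted p = 0.0394) and higher in promyelinating than in cycling cells. Btg2 was at 35.5 and 26.7 CPM in promyelinating cells against 263 and 200 CPM in other cells (-2.82 ± 0.345, edgeR adjusted p = 0.00550). Btg2 is both a p53 target and an early response gene.

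Genes beside Cdkn1c on chromosome 7 gave no calls. Of 12 listed, Kcnq1ot1 and H19 were not analysed here, and 6 of the remaining 10 were tested. In none of the 3 comparisons did any pass with edgeR, DESeq2 or limma, and 0 of 6 had an unadjusted p under 0.05 in each, or 1 of 6 between promyelinating and other cells with the plate as a block. The imprinted neighbours Phlda2, Slc22a18 and Ascl2 had 0 reads in the promyelinating and other cells of both plates.

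Other differences between the classes ran alongside. Of 13 genes that respond to tissue dissociation, 6 were lower in promyelinating than in other cells (Fos, Jun, Egr1, Atf3, Ier2 and Dusp1) and 7 were lower than in cycling cells, where 1.29% and 3.83% of all genes were called lower. Their summed level was 2403 and 2622 CPM in promyelinating, 6513 and 7308 CPM in other and 5302 and 7844 CPM in cycling cells. Nerves had been dissociated with enzymes before sorting. Atf3 had 0 reads and 1.09 CPM in promyelinating cells, against 328 and 344 CPM in other cells. In cells without a read of Atf3 (39 and 35 cycling, 115 and 144 other, 59 and 57 promyelinating), Cdkn1a was higher in promyelinating than in other cells by 2.18 ± 0.248 on the log2 scale (edgeR adjusted p = 0.00816). In these cells the value for Cdkn1c between promyelinating and other cells was 0.76, with 667 and 1037 CPM in other cells (edgeR adjusted p = 0.618). For Cdkn1b between promyelinating and cycling cells it was 1.80 ± 0.444 and no longer passed (edgeR adjusted p = 0.0735). For Cdkn1c between cycling and other cells it was -1.59 ± 0.337 (edgeR adjusted p = 0.108). This selection was chosen after the data were seen and left fewer cells.

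Summed transcripts of 6 mitochondrial genes were at 30916 and 30795 CPM in cycling, 36100 and 37410 CPM in other and 41229 and 42725 CPM in promyelinating cells, and none of the 6 passed in edgeR's test without a block. Between promyelinating and cycling cells 3 had an unadjusted p under 0.05, the fit with the plate as a block called 2 higher, and DESeq2 and limma each called 1. Of all genes, the block, DESeq2 and limma called 885, 2312 and 1343 in that comparison. The part of the mitochondrial genes in the levels of the members was not tested. Of the markers of other nerve cells, the summed level of 5 endothelial genes was at most 2.91 CPM, that of 4 immune genes between 2.77 and 20.7 CPM and that of 4 mural genes between 24.8 and 56.8 CPM, lowest in the cycling cells of each plate. Of these, the mural gene Pdgfrb had 0 reads in cycling cells and stood at 20.7 and 37.8 CPM in other and 43.7 and 13.8 CPM in promyelinating cells, and was called lower in cycling cells than in both other classes. The 4 fibroblast genes summed to 2431 and 2678 CPM in promyelinating cells against 4787 to 5346 CPM in both other classes, nearly all from Col3a1, a collagen gene that SCs also express, while Lum had 0 reads in 3 of the 6 sums. Whether these markers bear on the members was not tested.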

How the data were processed

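Smart-seq2 libraries of 743 single wells on 2 plates were analysed. The values deposited by the authors are read counts per gene and well, not normalized. The submitters' processing notes name bcl2fastq, STAR 2.6.1c, featureCounts and GRCm38.p5, whereas the study's methods name another STAR version and a human build. All gene identifiers are of mouse, and use of strand is not given in the sources used here. Of 25700 identifiers, 25587 matched GENCODE M21 names, and 9528 genes had no read.

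CPM were computed here from the deposited counts. Counts were summed per plate and class, filtered with filterByExpr, scaled by TMM and tested with edgeR 4.0.16 (glmQLFit, glmQLFTest, R 4.3.3) over 6 sums with Benjamini-Hochberg adjustment at 0.05. The SE is the log2 fold change divided by the square root of F. DESeq2 1.42.0, limma 3.58.1, a plate block and other filters, limits and scalings were alternatives, and the scripts were tested on simulated data. Each plate has its own pool and holds all classes. Deviations of same-plate sums from class means correlated at 0.21, 0.10 and 0.15 over 3713 genes, so the plates pair the classes. The main fit held no plate term and left this pairing out. An exact two-sided permutation test of 2 against 2 sums cannot go below p = 0.333. No doublet caller was run, since wells held 1 sorted cell. Intervals are exact binomial at 95%. Thinning to 50000 reads left out 5 cells.

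Named genes are the members, of each list and comparison up to 4 genes with the largest log2 fold change among those with an adjusted p under 0.05 and 1 direction on both plates, the regulators Skp2, Cks1b, Trp53, Mdm2, Foxo1 and Foxo3, and the 5 genes most like each member. Ccnd2, Cdkn2a, Cdkn2c, Fzr1, Fos, Jun, Plk2, Phlda3 and the imprinted neighbours of Cdkn1c fall outside this rule and were named after their values were seen, and marker genes are named for the check of the classes. The members and lists were chosen with earlier results of these data known. Kcnq1ot1 and H19 were not analysed here. Some marker genes are not reported here.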

Additional observations from a re-analysis of the deposited data

Results flagged for a closer look

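The 122 wells with fewer than 1500 detected genes entered no comparison, yet held reads of all 3 genes, which is why they are listed. Summed over these wells, Cdkn1a stood at 296 CPM, Cdkn1b at 34.3 CPM and Cdkn1c at 343 CPM, where 3 reads of the sum would be 0.143 CPM. Reads were present in 14, 23 and 24 of the 122 wells, or 11.5%, 18.9% and 19.7%. In the 83 wells of plate 1 the levels were 162, 32.0 and 247 CPM, and in the 39 wells of plate 2 they were 844, 43.7 and 732 CPM. These wells were not assigned to a class.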

How the results depend on the processing

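Cdkn1a in promyelinating against other cells, and Cdkn1a and Cdkn1c in promyelinating against cycling cells, passed in 15 of 15 settings, with adjusted p of at most 0.00816, 0.000726 and 0.00963, and no direction reversed. Cdkn1a in cycling against other cells passed with the plate as a replicate block (0.0141), DESeq2 (0.000205), limma (0.0371), no filter (0.00376), thinned cells (0.0476) and capped cells (0.0457). Cdkn1b in promyelinating against other cells passed with DESeq2 (0.00141), limma (0.0423), no filter (0.0244) and thinned cells (0.0360). Cdkn1c in that comparison passed with the replicate block (0.00427), DESeq2 (0.000817), limma (0.0393), no filter (0.00110) and thinned cells (0.0117). Cdkn1c in cycling against other cells no longer passed with RLE (0.0541), at least 1000 genes (0.0529) or 2500 genes (0.0526) per cell, cycling limits of 20 CPM (0.0905) or 100 CPM (0.0632), an Ncmap limit of 20 CPM (0.0530), or without cells with Atf3 reads (0.108), a choice made after the data were seen. That choice also ended the call of Cdkn1b between promyelinating and cycling cells (0.0735). The causes were not tested, and the plate block changed no other call of a member.

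Genes called in cycling against other, promyelinating against other and promyelinating against cycling cells numbered 134, 238 and 791. They were 796, 1012 and 2312 with DESeq2, 232, 379 and 1343 with limma, 317, 521 and 1290 without a filter, 251 and 405 in the first 2 comparisons with thinned cells, and 124 and 501 in the last 2 without cells with Atf3 reads. Of the calls between cycling and other cells, 88.8% were higher in cycling cells, 56.5% with DESeq2 and 71.6% without a filter. With 1 plate left out no test is possible, and the log2 ratios of the lone plates were -1.13 to -1.04 (Cdkn1a), -0.52 to -0.48 (Cdkn1b) and -1.69 to -1.60 (Cdkn1c) for cycling against other cells. They were 2.07 to 2.17, 1.28 to 1.93 and 1.00 to 1.20 for promyelinating against other cells, and 3.11 to 3.30, 1.80 to 2.41 and 2.68 to 2.80 for promyelinating against cycling cells. With 2 plates, p-values measure the spread between these pools alone.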
